A study of Bos taurus with 15 samples.

Results

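The mammary transcriptome at 24 h after dexamethasone (DEX) was compared with that at 12 h in the same cows. The comparison holds 8 of the 15 libraries of the series, chosen by their labelled time point, with 4 cows (cows 1 to 4) on each side and every cow measured at both times. The animals were non-pregnant Holstein cows in lactation number 2, between 40 and 64 days in milk, and their age was not given in the sources used here. Each cow received a single intramuscular injection of 40 mg of DEX in the evening and ampicillin as a prophylactic over the days of biopsy, so all 8 libraries come from treated animals. The 12 h biopsy was taken from the left front gland. The 24 h biopsy was taken from the gland numbered 3, which the study's methods call left right and which is read here as right front. Time since DEX, the gland and the time of day (morning at 12 h, evening at 24 h) change together in this comparison and cannot be told apart. The other 7 libraries, from 4 cows at 0 h (immediately before DEX, left rear gland) and 3 cows at 72 h (right rear gland), are used to place the 2 time points. The study removed 1 cow that ceased ruminating by 24 h, and cow 1 is taken as that animal because it alone has no library at 72 h.

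DEX is a synthetic glucocorticoid. Glucocorticoids bind a receptor inside the cell that moves to the nucleus and raises the transcription of some genes while lowering that of others, including many genes of inflammation. In the lactating mammary gland they act together with prolactin on milk protein genes, and a large dose transiently lowers milk yield in dairy cows. Comparing a later with an earlier biopsy addresses how the transcriptome moves on while milk yield is low.

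RNA was sequenced from the 3′ end of transcripts (QuantSeq, in which long transcripts collect no more reads than short ones). The authors deposited normalized counts, that is reads per gene scaled to a common library size, and the reads behind each value were recovered from them. The libraries held between 4029166 and 6228132 reads on genes. At 12 h these were 5794633 reads in cow 1, 4526974 in cow 2, 4977307 in cow 3 and 5238539 in cow 4. At 24 h they were 4824885, 6228132, 4479772 and 4029166 in the same order. The difference in depth between times went in both directions among the cows (exact paired permutation test, two-sided p = 0.75, n = 4 cows, smallest p possible 0.125). In bulk tissue a lower level can come from fewer cells of a type or from less RNA per cell, and these cannot be told apart. The deposited table gives Ensembl identifiers with no gene names, and the gene table used here matched none of them to a name. Markers of the mammary epithelium and of other cell types were therefore not checked, and genes are described by identifier without a function.

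Between 12 h and 24 h, 491 of the 9694 genes tested changed (5.06%) at an adjusted p under 0.05 in limma. Of these, 209 genes (2.16% of those tested) were higher at 24 h and 282 (2.91%) were lower. The typical change was 2-fold in either direction, since the median log2 fold change was 1.00 in the genes that rose (quartiles 0.77 and 1.3) and -1.03 in the genes that fell (quartiles -1.33 and -0.82). Over all genes tested the median was -0.01. Changes of 4-fold or more were few, with 8 genes that rose and 10 that fell, while 104 of the 209 and 147 of the 282 reached 2-fold. The count depended on the cows. With 3 cows in place of 4 it was 193 genes without cow 1 (2.06%), 367 without cow 2 (3.98%), 112 without cow 3 (1.21%) and 200 without cow 4 (2.17%). The excess of falls depended on them too, since without cow 3 it was 57 genes higher and 55 lower.

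**Figure D1:**
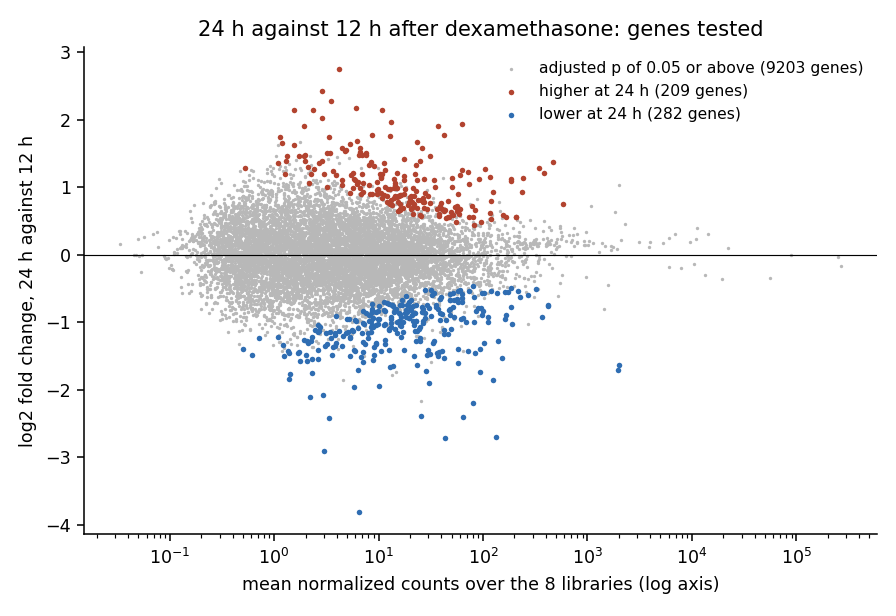
Log2 fold change at 24 h against 12 h (vertical axis) by mean normalized counts over the 8 libraries (horizontal log axis), 1 point per gene. The 209 red genes were higher and the 282 blue genes lower at 24 h, and the grey genes had an adjusted p of 0.05 or above in limma.

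In most of the changed genes the libraries of the 2 time points did not overlap. The 4 libraries at 24 h all lay above the 4 at 12 h in 189 of the 209 genes that rose, an arrangement held by 5.38% of all genes tested, and all lay below in 248 of the 282 genes that fell, against 6.09% of all genes tested. The direction was the same in 4 of 4 cows for 207 of the genes that rose and 270 of those that fell, where 12.9% of all genes tested were higher in 4 of 4 cows and 12.8% lower. These counts describe the genes that the test selected on the same libraries and are not separate evidence.

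The largest rise by the rule for naming genes was that of ENSBTAG00000000246, a transcript of low abundance. At 12 h it had 0.368 normalized counts in cow 1, 0.661 in cow 2, 1.03 in cow 3 and 0.601 in cow 4, from 2 to 5 reads per library. At 24 h it had 13.7, 4.95, 6.61 and 5.66 normalized counts in the same cows, from 21 to 82 reads. Every 24 h library was above every 12 h library, and cow 1 was the highest of them. The mean rose from 0.664 ± 0.272 to 7.74 ± 4.06 normalized counts (SD, n = 4 cows), a ratio of 11.7, and the log2 fold change was 2.74 on the scale of log2(normalized count + 0.5), which understates the change of such a low gene (standard error 0.35, adjusted p = 8.958e-05 in limma). This gene stood at 0.805 ± 0.34 normalized counts at 0 h (n = 4 cows) and 0.378 ± 0.0599 at 72 h (n = 3 cows), so 24 h was the single time point at which more than 5 reads were found in any library.

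ENSBTAG00000020196 had the next largest rise and a different course. It held 0.736, 2.2, 1.85 and 2.4 normalized counts at 12 h in cows 1 to 4, and 5.36, 6.6, 12.8 and 16.4 at 24 h. The groups did not overlap, and cow 1 was the lowest library at both times. The log2 fold change was 2.17 (standard error 0.35, adjusted p = 0.0009054 in limma), between 4 and 12 reads per library at 12 h and between 32 and 61 at 24 h. At 0 h the mean was 9.03 ± 1.94 normalized counts (SD, n = 4 cows), close to the 10.3 ± 5.23 of 24 h. Its log2 fold change was -2.10 at 12 h against 0 h (adjusted p = 0.0002601 in limma) and 0.07 at 24 h against 0 h (standard error 0.35, adjusted p = 0.9465 in limma). These comparisons share libraries with each other.

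Among the genes that fell, ENSBTAG00000004555 had the largest change. It had 19.7, 8.59, 14.8 and 6.81 normalized counts at 12 h in cows 1 to 4, from 34 to 107 reads. At 24 h it had 1.68 normalized counts in cow 1 (10 reads), 0.183 in cow 2 and 0.213 in cow 3 (1 read each), and no read in cow 4. All cows were thus lower at 24 h, and cow 1 kept the most. The log2 fold change was -3.81 (standard error 0.42, adjusted p = 1.64e-05 in limma). The fitted size depends on the value added before the logarithm because the 24 h libraries are near 0. At 0 h no library held more than 2 reads, and at 72 h the 3 libraries held 0 reads, which allows up to 1.223 normalized counts in the shallowest of them (3 reads, counting error only, since no step that removes PCR copies is described). The transcript was thus measured above 10 reads at 12 h alone.

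ENSBTAG00000001626 fell from a higher level. Its values at 12 h were 76.6, 52.9, 108 and 48.3 normalized counts in cows 1 to 4, and at 24 h they were 1.84, 31.6, 14.5 and 9.98. The groups did not overlap, but the size of the fall differed widely between animals, with a log2 change of -5.04 in cow 1, -0.74 in cow 2, -2.85 in cow 3 and -2.22 in cow 4. Fitted over the 4 cows, it came to -2.71 (standard error 0.47, adjusted p = 0.001424 in limma). Without cow 1 it was -1.94 (adjusted p = 0.007685) and without cow 2 it was -3.37 (adjusted p = 0.0007603), so single cows set its size but not its direction. The mean of 71.4 ± 27.2 normalized counts at 12 h stood above the 14.3 ± 2.91 of 0 h, while the 14.5 ± 12.5 of 24 h (SD, n = 4 cows each) and the 11 ± 4.17 of 72 h (n = 3 cows) were near it.

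**Figure D2:**
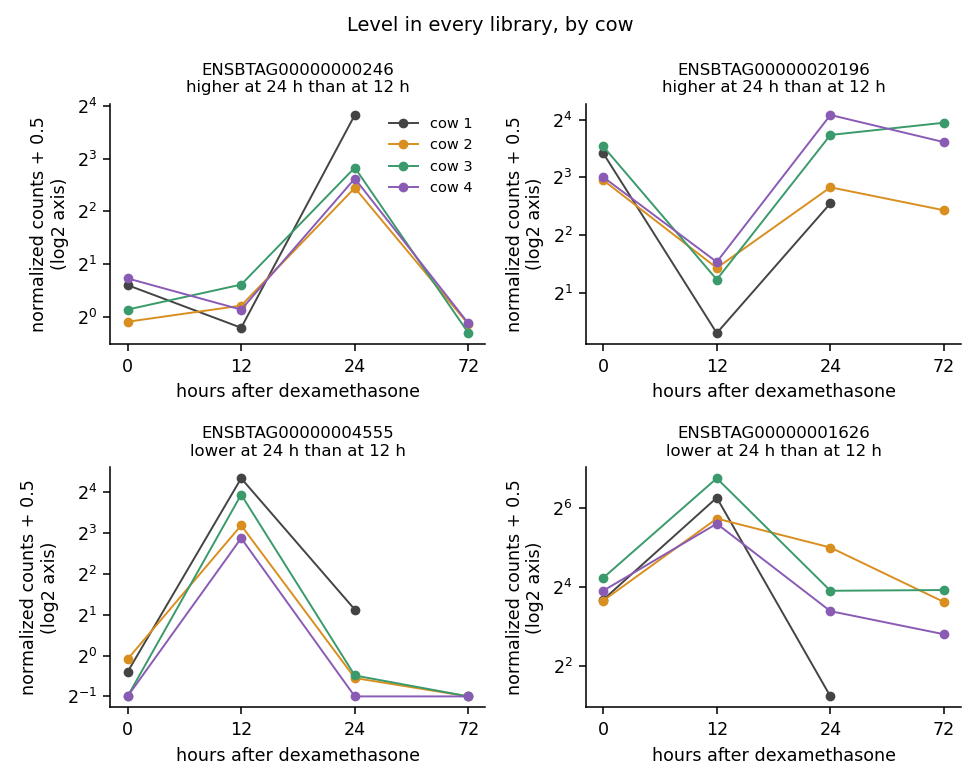
Normalized counts plus 0.5 (log2 axis) of 4 genes in every library by hours after DEX, 1 line per cow (cow 1 has no 72 h library). ENSBTAG00000000246 peaked at 24 h, ENSBTAG00000020196 was lowest at 12 h, and ENSBTAG00000004555 and ENSBTAG00000001626 peaked at 12 h in each cow.

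The largest changes differed in their course from 0 h. The 12 largest rises, drawn from the 176 genes past the threshold that averaged 4 normalized counts or more and moved alike in 4 of 4 cows, ran from 2.74 to 1.63 on the log2 scale. Their estimates at 12 h against 0 h ran from -2.10 to 0.87 (median -0.61), and those at 24 h against 0 h from 0.07 to 2.78 (median 1.20). At 12 h against 0 h 5 of them were called, 4 as lower and 1 as higher, where 9.59% of all genes tested were called (4.76% lower, 4.84% higher). At 24 h against 0 h 6 of them were called, all as higher, where 6.98% of all genes tested were called (3.83% higher, 3.16% lower), and 3 were called at neither time. The 12 largest falls, among 226 such genes, ran from -3.81 to -1.72. Their estimates at 12 h against 0 h ran from 0.35 to 7.33 (median 2.20), and 9 of the 12 were called as higher at 12 h than before DEX, against 4.84% of all genes tested. Those at 24 h against 0 h ran from -1.85 to 4.93 (median 0.17), with 3 genes called as lower than at 0 h and 2 as higher, against 3.16% and 3.83% of all genes tested. Genes with a large difference between 12 h and 24 h tend by their choice to be high or low at 12 h, so these counts are a description and nothing is read from their distance to the shares over all genes. At 72 h against 0 h the medians were -0.02 for the rises and -0.12 for the falls. The libraries of the 2 times did not overlap in 11 of the 12 rises and in all 12 falls, against 5.38% and 6.09% of all genes tested. Cow 1 had the largest ratio of the 4 cows in 8 of the rises and 9 of the falls. Without its libraries 10 of the rises and 12 of the falls passed the threshold, where 2.06% of all genes tested did. The genes were chosen on these same libraries for size and a shared direction, so these counts are not separate evidence.

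Because the genes were picked for their difference between 12 h and 24 h, their size in the same cows can be overstated, so each cow was also set against genes called in the other 3. Of the genes called as higher in 3 cows, 85 of 91 were higher at 24 h in cow 1 (93.41%), 115 of 131 in cow 2 (87.79%), 57 of 57 in cow 3 and 84 of 87 in cow 4 (96.55%). Over all genes tested, between 48.25% and 51.68% were higher in the cow left out. The median log2 change of the called genes in that cow was 0.99 in cow 1, 0.77 in cow 2, 0.90 in cow 3 and 1.08 in cow 4. All 4 animals therefore showed the rise in genes that their own libraries had no part in choosing. These are counts of genes, which are not independent replicates.

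Genes called as lower behaved likewise, with cow 2 the weakest. Lower values at 24 h were found for 97 of 102 genes in cow 1 (95.1%), 196 of 236 in cow 2 (83.05%), 53 of 55 in cow 3 (96.36%) and 111 of 113 in cow 4 (98.23%), against 47.36% to 50.71% of all genes tested. The median log2 change was -1.29 in cow 1, -0.40 in cow 2, -1.09 in cow 3 and -0.97 in cow 4. In cow 2 the quartiles were -0.82 and -0.11. In the 3 cows that chose them, the medians of these sets were -1.21, -1.18, -1.44 and -1.3 with cows 1 to 4 left out, values that the choice itself makes large, so the distance between the chosen and the left-out cows is not read as a difference between animals.

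**Figure D3:**
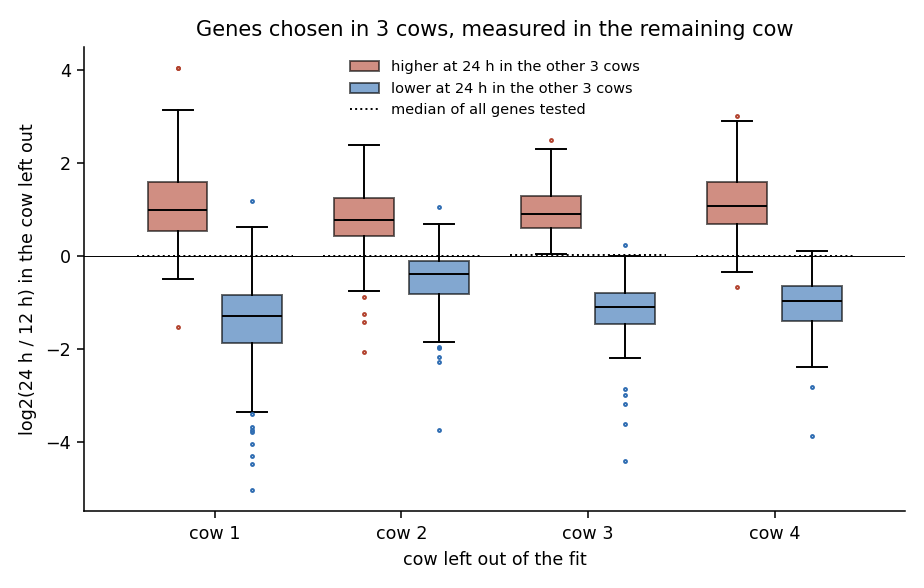
Log2 ratio of 24 h to 12 h in each cow for genes called as higher (red) or lower (blue) in a fit to the other 3 cows. Boxes show quartiles with the median, whiskers and dots show the remaining genes, and the dotted lines near 0 are the medians of all genes tested. Every red median lay above 0 and every blue median below, with cow 2 closest to 0.

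The same held-out genes were followed back to 0 h within the cow left out. Genes that rose between 12 h and 24 h stood below their 0 h level at 12 h in each cow, with a median log2 difference of -1.0 in cow 1, -0.63 in cow 2, -0.89 in cow 3 and -0.68 in cow 4. At 24 h the medians were 0.10, 0.07, 0.08 and 0.26 relative to 0 h. Genes that fell stood above 0 h at 12 h, by a median of 0.69, 0.45, 1.01 and 0.76 on the log2 scale in cows 1 to 4. At 24 h they were at -0.50, 0.06, 0.13 and -0.16 relative to 0 h. In each cow the median of either set was thus nearer to 0 at 24 h than at 12 h, with cow 1 the farthest below it for the genes that fell. Gene by gene the picture was weaker. Of the genes that rose, 67.03%, 61.07%, 71.93% and 59.77% were nearer to their 0 h value at 24 h than at 12 h in cows 1 to 4, and of those that fell 50.0%, 66.53%, 81.82% and 63.72%. Over all genes tested the shares were 46.53%, 46.94%, 52.74% and 49.19%, so in cow 1 the genes that fell stood close to that background. The differences at 12 h and at 24 h use the same 0 h library of each cow.

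When all 4 cows were used to choose the genes, the medians relative to 0 h were -0.62 at 12 h and 0.35 at 24 h for the genes that rose, and 0.60 and -0.38 for those that fell. The 72 h and 0 h libraries had no part in the difference between 12 h and 24 h, but they entered the spread and the filter behind the choice. The median at 72 h against 0 h was -0.08 for the genes that rose and 0.11 for those that fell, against 0.02 for all genes tested. The mean level at 0 h was nearer that of 24 h than that of 12 h in 119 of the 209 genes that rose (56.94%) and in 165 of the 282 that fell (58.51%). Over all genes tested these shares were 50.56% where the estimate was above 0 and 54.91% where it was below, which is close to the shares of the changed genes. In cows 2 to 4 alone, the shares nearer 24 h were 53.11% (genes that rose) and 62.06% (genes that fell). The matching shares of all genes tested were 50.98% and 54.43%. With 72 h in place of 0 h, the mean level was nearer that of 24 h in 100 of the genes that rose (47.85%) and 133 of those that fell (47.16%), where the shares over all genes tested were 48.98% and 48.01%. Here the 72 h mean covers cows 2 to 4, while the means of 12 h and 24 h include cow 1. With cows 2 to 4 at every time the counts were 102 (48.8%) and 138 (48.94%), against 48.65% and 48.06% of all genes tested. Counted over all 4 cows, the remaining 90 genes that rose and 117 that fell had a 0 h level nearer to that of 12 h.

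**Figure D4:**
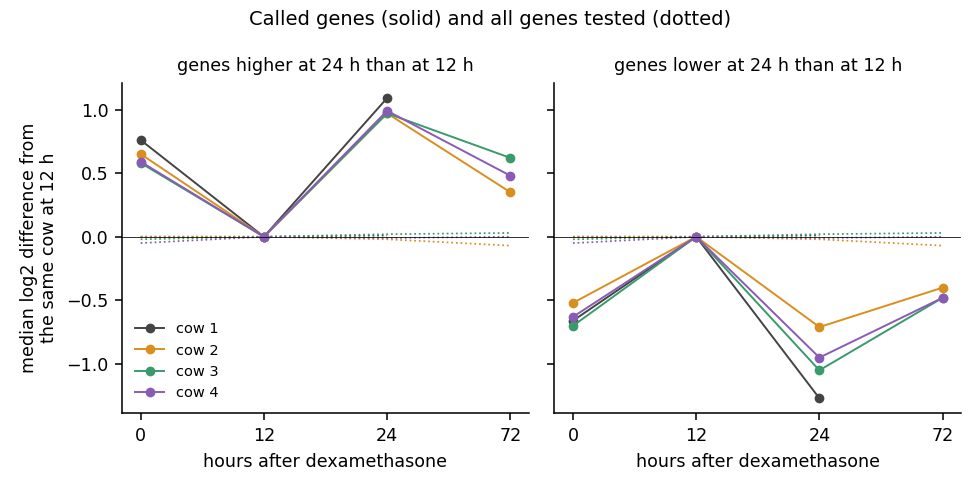
Median log2 difference from the same cow's 12 h library at 0, 12, 24 and 72 h, for the 209 genes higher at 24 h (left) and the 282 genes lower at 24 h (right), 1 line per cow. Dotted lines are all genes tested. The medians at 0 h and 72 h fell between those of 12 h and 24 h in every cow measured. These genes were chosen for their difference between 12 h and 24 h, so medians at other times tend to fall between, and nothing is read from it.

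The changed genes were unevenly spread over levels of expression. Among genes with a mean under 4 normalized counts 76 of 4922 were called (1.54%), from 4 to 10 it was 94 of 1860 (5.05%), from 10 to 100 it was 277 of 2555 (10.8%), and at 100 or more it was 44 of 357 (12.3%). The median standard error fell over the same classes, from 0.399 through 0.281 and 0.204 to 0.16 on the log2 scale. The median size of a called change was 1.39, 1.13, 0.87 and 0.91 in that order, so at low levels larger changes were needed to pass. Genes that fell outnumbered those that rose in each class.

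**Figure D5:**
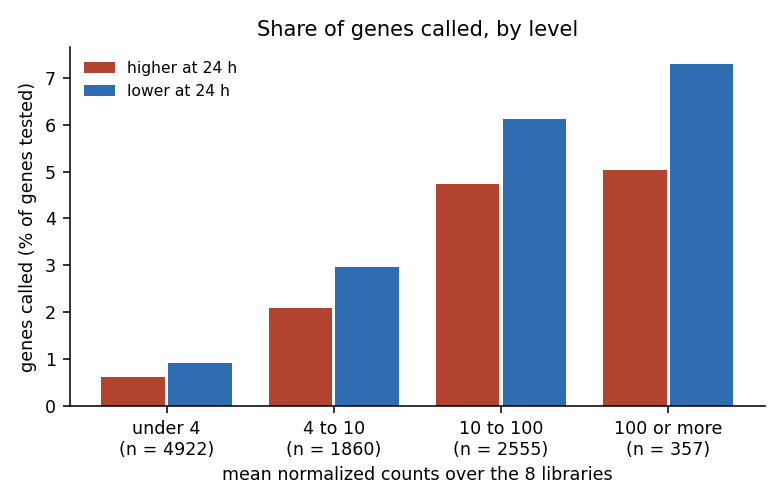
Percent of genes tested that were higher (red) or lower (blue) at 24 h, in 4 classes of mean normalized counts over the 8 libraries. The share called was lowest under 4 normalized counts (0.63% higher, 0.914% lower) and highest at 100 or more (5.04% and 7.28%).

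None of the 20 most abundant genes passed the threshold in limma or had an unadjusted p under 0.05, which 17.8% of all genes tested had, and edgeR, DESeq2 and limma-voom called 0 of them. The share called was 5.06% over all genes tested and 12.3% over those at 100 normalized counts or more. Their log2 fold changes ran from -0.36 to 0.39 with standard errors from 0.15 to 0.39 and adjusted p-values from 0.421 to 0.998. The pair at the top of the list took 54.39% of the reads at 12 h and 48.41% at 24 h in cow 1. In cow 2 the shares were 49.52% and 48.78%, in cow 3 they were 50.08% and 49.36%, and in cow 4 they were 52.03% and 53.45%. The mean was 51.51% ± 2.2 at 12 h and 50% ± 2.33 at 24 h (SD, n = 4 cows, exact paired permutation test, two-sided p = 0.5, where the smallest possible is 0.125). The number of genes with at least 1 normalized count was 7380 ± 178 at 12 h and 7400 ± 232 at 24 h (SD, n = 4 cows), higher at 24 h in 2 cows and lower in 2 (exact paired permutation test, two-sided p = 1).

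The cows did not vary alike. Over the 2912 genes averaging 10 normalized counts or more, the log2 ratio of 24 h to 12 h had a standard deviation between genes of 0.76 in cow 1, 0.57 in cow 2, 0.542 in cow 3 and 0.535 in cow 4. Over all 9694 genes tested it was 0.813, 0.746, 0.717 and 0.737 in the same order, so cow 1 stood apart less. Scaling of the 24 h library by the authors used a factor of 1.237 in cow 1, against 0.8753 in cow 2, 1.047 in cow 3 and 0.9204 in cow 4, while at 12 h the 4 factors lay between 0.9377 and 1.003. The part of the illness of cow 1 in these values was not tested. In the genes called from all 4 cows, the median change of those that fell was -1.27 in cow 1 and -0.71 in cow 2, with -1.05 in cow 3 and -0.95 in cow 4, whereas the medians of those that rose lay between 0.97 and 1.09.

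The text of the study prints 2 identifiers without a gene name, and neither passed the threshold between 12 h and 24 h. ENSBTAG00000047609 had 104, 92.3, 66.9 and 27.3 normalized counts at 12 h in cows 1 to 4 and 115, 123, 90.8 and 40.2 at 24 h. It was higher at 24 h in 4 of 4 cows, by 0.14, 0.41, 0.44 and 0.55 on the log2 scale, but the cows differed among themselves by more than this and the groups overlapped (log2 fold change 0.38, standard error 0.46, adjusted p = 0.7374 in limma). With cow as a fixed term, a fit that compares each cow with itself, the adjusted p was 0.2972 in limma, and over 21 distinct alternatives it ran from 0.1633 to 0.8553. ENSBTAG00000047136 had 210, 216, 220 and 205 normalized counts at 12 h, a narrow range, and 170, 320, 247 and 239 at 24 h. It was lower in cow 1 and higher in the other 3 cows, and the log2 fold change was 0.16 (standard error 0.15, adjusted p = 0.6359 in limma). The study prints this gene among those raised at 24 h after DEX, and ENSBTAG00000047609 for an association with milk fat content over time. Those are other comparisons than 24 h against 12 h. At 24 h against 0 h, ENSBTAG00000047136 had a log2 fold change of 0.39 over cows 1 to 4 (standard error 0.15, adjusted p = 0.1228 in limma).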

How the data were processed

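Mammary RNA was measured in 15 libraries of 4 cows. The authors trimmed reads with HTStream, aligned them with STAR (2.6.0c) to Bos taurus UMD3.1 with Ensembl annotation and counted reads per gene. The deposited values are a normalized signal, in which reads are divided by both the library size and a factor of each library. This factor equals edgeR's TMM factor for the recovered reads to 4 digits. All columns were assigned to a sample. Dividing each library by its smallest value gave whole reads for 100% of values (tolerance 0.01), worth 0.1675 to 0.2697 normalized counts per read in the 8 libraries. Of 24616 identifiers, 10712 were 0 throughout, and 0 matched a symbol in the RefSeq table (assembly ARS-UCD2.0), so the lists and cell markers fixed by symbol were not analysed here.

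Genes totalling at least 4 normalized counts were tested with limma (3.58.1, R 4.3.3) on log2(normalized count + 0.5), over all 15 libraries, with time point as factor, the within-cow correlation of the study's methods and Benjamini-Hochberg adjustment. Libraries of a cow share an animal. Their residuals at 12 h and 24 h correlated at 0.314, 0.226, 0.359 and 0.555 in cows 1 to 4 (2922 genes), and the consensus correlation was 0.0565. The limma and edgeR fits were checked on simulated data with known changes. There were 20 alternatives set in advance and 2 added after seeing the data, 21 of them distinct fits, among them edgeR (4.0.16) and DESeq2 (1.42.0). Identifiers printed are the 2 largest rises and 2 largest falls averaging 4 normalized counts or more and with 1 direction in 4 cows, and those the study prints. The comparison, lists and filter were chosen with earlier results of these data known. Each cow gave 1 library per time point. The limma p-values rest on the spread between cows within a time point, pooled over all time points and moderated across genes. With a consensus correlation of 0.0565 they make little use of the pairing, so they do not measure how the change from 12 h to 24 h varied between cows.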

Additional observations from a re-analysis of the deposited data

Results flagged for a closer look

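In the 22 groups of 4 libraries examined, at 12 h and at 24 h, 1 library stood apart by Dixon's test, where chance gives about 1 in 20 (1.1 here). This was the 24 h library of cow 1, with 1.675 normalized counts of ENSBTAG00000004555 while no other cow exceeded 0.2132, so that the gap took up 0.873 of the range.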

How the results depend on the processing

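The count of changed genes was 491 (209 higher, 282 lower) and stayed within 1.5 times in 15 of 21 distinct alternatives (leaving out cow 1 and keeping cows 2 to 4 are 1 fit). Leaving out a cow gave between 112 and 367 genes, 57 to 131 higher and 55 to 236 lower, from fits with fewer samples, and 36.3%, 61.3%, 22.8% and 39.1% of the 491 were called without cows 1 to 4. Cows 2 to 4, the animals the study kept, gave 193 genes (91 higher, 102 lower), and 322 (157 higher, 165 lower) with cow as a fixed term, a replicate block chosen after seeing the data. The study itself listed fewer genes than either for 12 h against 24 h at the same threshold. It used limma-voom and its own filter on low values, and the cause of the difference was not tested. Over all 15 libraries the block by a fixed term gave 612 genes (260 higher, 352 lower) and no block 373 (156 higher, 217 lower). Without a filter on low values 325 of 13904 genes passed (136 higher, 189 lower), and with a constant prior variance 271 (112 higher, 159 lower), for which the cause was not tested. edgeR on the recovered reads called 694 genes (342 higher, 352 lower), DESeq2 640 and limma-voom 610, and the share of higher genes was 49.3% with edgeR and 48.7% after quantile normalization, against 42.6%, while without single cows it ran from 35.7% (cow 2) to 50.9% (cow 3, where 57 genes were higher and 55 lower).

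The 6 printed identifiers kept their direction and their side of the threshold in all 123 alternative values. ENSBTAG00000000246, ENSBTAG00000020196 and ENSBTAG00000004555 were not tested where genes had to average 10 normalized counts. The adjusted p reached at most 0.03141 for ENSBTAG00000001626, 0.02516 for ENSBTAG00000020196, 0.005202 for ENSBTAG00000000246 and 0.003606 for ENSBTAG00000004555. Under 4 normalized counts the median standard error was 0.399 on the log2 scale, and called changes there had a median size of 1.39, in either direction.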
